A study of Mus musculus with 13 samples.

Results

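The extracellular module of Wnt signalling is described here: the ligands, their Frizzled and Lrp receptors, and the secreted inhibitors of the Sfrp and Dkk families. Members were taken by symbol, as every gene named Wnt or Fzd with a number, Sfrp1 to Sfrp5, Dkk1 to Dkk4, Lrp5 and Lrp6. This gave 39 of the 25655 genes in the files: 19 Wnt ligands, 10 Frizzleds, 2 Lrp co-receptors, 4 Sfrp and 4 Dkk genes. The study sequenced RNA of 13 primary cultures of dermal fibroblasts from neonatal mice and asked whether a mutation of Fbn1 changes these cells in themselves. Fbn1 encodes fibrillin-1, the main protein of extracellular microfibrils. In 7 cultures, M1 to M7, the mice were homozygous for the G234D allele, and in 6 cultures, W1 to W6, they were wild type (WT). Set 1 held M1 to M4 and W1 to W4, and the additional set 2 held M5 to M7 and W5 and W6. By the animal numbers in the titles, the later animals of set 1 are M3, M4, W3 and W4, and the earlier animals are M1, M2, W1 and W2. No label calls these groups a litter or a batch, and the number of W1 lies far below the others. The cultures were untreated as far as the labels say, each genotype was sampled from separate mice, and p-values measure the spread between these cultures.

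Wnt proteins are lipid-modified secreted ligands that bind Frizzled receptors at the cell surface. With the co-receptor Lrp5 or Lrp6, a ligand stabilises β-catenin, which then acts with TCF and LEF factors on target genes. Other ligands, with Wnt5a as the best known, act largely without β-catenin, on cell polarity and movement. Sfrp proteins carry a Frizzled-like domain and bind Wnts outside the cell, and Dkk1 and Dkk2 bind Lrp5 and Lrp6. In skin, Wnt signalling is known for its part in dermal fibroblast identity and in hair follicle formation.

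Values were TPM, a measure of transcript abundance that adjusts for gene length and carries no read totals, so the depth behind them is unknown. Between 11741 and 12042 genes reached 1 TPM in a culture. All 10 fibroblast markers checked stood at 1 TPM or more in at least 6 cultures, with Col1a1 between 9410 and 14600 TPM. Summed TPM of keratinocyte markers stayed between 2.79 and 10.9 and those of endothelial markers between 3.32 and 4.59 per culture. The 14 skeletal muscle markers summed to 513 TPM in M1 and 389 TPM in M2, against 75.9 to 190 TPM in the 11 other cultures. Schwann cell and melanocyte markers (12 genes) summed to 142 TPM in M1 and 143 TPM in M2, against 25.9 to 51.5 TPM in the others. Macrophage markers (12 genes) summed to 35.9 to 48.5 TPM in later animals, and among earlier animals to 169 TPM in M1 and 224 TPM in M2, against 99.2 TPM in W1 and 39.1 TPM in W2. In set 2 they summed to 109 to 171 TPM. No gene of these lists was at 0 in every culture. Fbn1 itself averaged 542.3 ± 50.2 TPM in G234D and 490.9 ± 42.8 TPM in WT cultures of set 1 (SD, n = 4 each). The allele changes an amino acid only, so this level is no check of the genotypes.

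At 1 TPM or more in at least 6 of 13 cultures, 21 of the 39 members were present: 7 ligands, 8 Frizzleds, both Lrp co-receptors, 2 Sfrp and 2 Dkk genes. Wnt5a and Wnt4 were the most abundant ligands, with means over all cultures of 59.7 ± 16.7 and 37.2 ± 10.9 TPM (SD, n = 13). Wnt9a followed at 16.8 ± 2.82 TPM. The other ligands were low: Wnt5b averaged 3.25 TPM, Wnt2b 2.83 TPM, Wnt16 2.80 TPM and Wnt11 1.59 TPM. Wnt16 exceeded Wnt11 in 12 of 13 cultures, whereas Wnt2b exceeded Wnt16 in 6 of 13, so the order of these 2 was not settled.

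Among the receptors Fzd2 led the whole module at 161.8 ± 16.3 TPM and stood above the next member, Dkk3, in 13 of 13 cultures. Fzd1 averaged 56.3 ± 14.5 TPM and Fzd7 41.1 ± 4.63 TPM. These 3 receptors were followed by Fzd8 at 10.3 TPM, Fzd5 at 10.2 TPM, Fzd6 at 5.96 TPM, Fzd4 at 4.32 TPM and Fzd3 at 2.98 TPM. Fzd8 exceeded Fzd5 in 5 of 13 cultures, so their order was not settled by these cultures. The co-receptors were even: Lrp6 averaged 31.2 ± 3.22 TPM and Lrp5 25.9 ± 3.18 TPM.

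Of the inhibitors, Dkk3, a divergent Dickkopf member that does not act through the Lrp co-receptors in the manner of Dkk1, averaged 117.4 ± 6.29 TPM. It ranged only from 102.1 to 127.1 TPM over all cultures. Dkk2 averaged 11.0 ± 3.72 TPM. Sfrp1 and Sfrp2 averaged 69.4 ± 32.7 and 31.1 ± 18.7 TPM, and they varied most among the abundant members. Sfrp2 ranged from 5.34 TPM in M1 to 67.5 TPM in W5, and Sfrp1 from 38.8 TPM in M1 to 134 TPM in M7. Sfrp1 exceeded Wnt5a in 7 of 13 cultures and Wnt5a exceeded Fzd1 in 6 of 13, so these neighbours had no stable order.

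The other 18 members stayed below the filter. Wnt2 reached 1.32 TPM in W2, Fzd9 1.03 TPM in M5 and Wnt10b 0.785 TPM in M2. The remaining 15 never reached 0.5 TPM, and their highest value was 0.405 TPM, of Fzd10 in M4. Wnt8a, Wnt8b, Wnt9b and Dkk4 were listed at 0 in every culture.

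**Figure D1:**
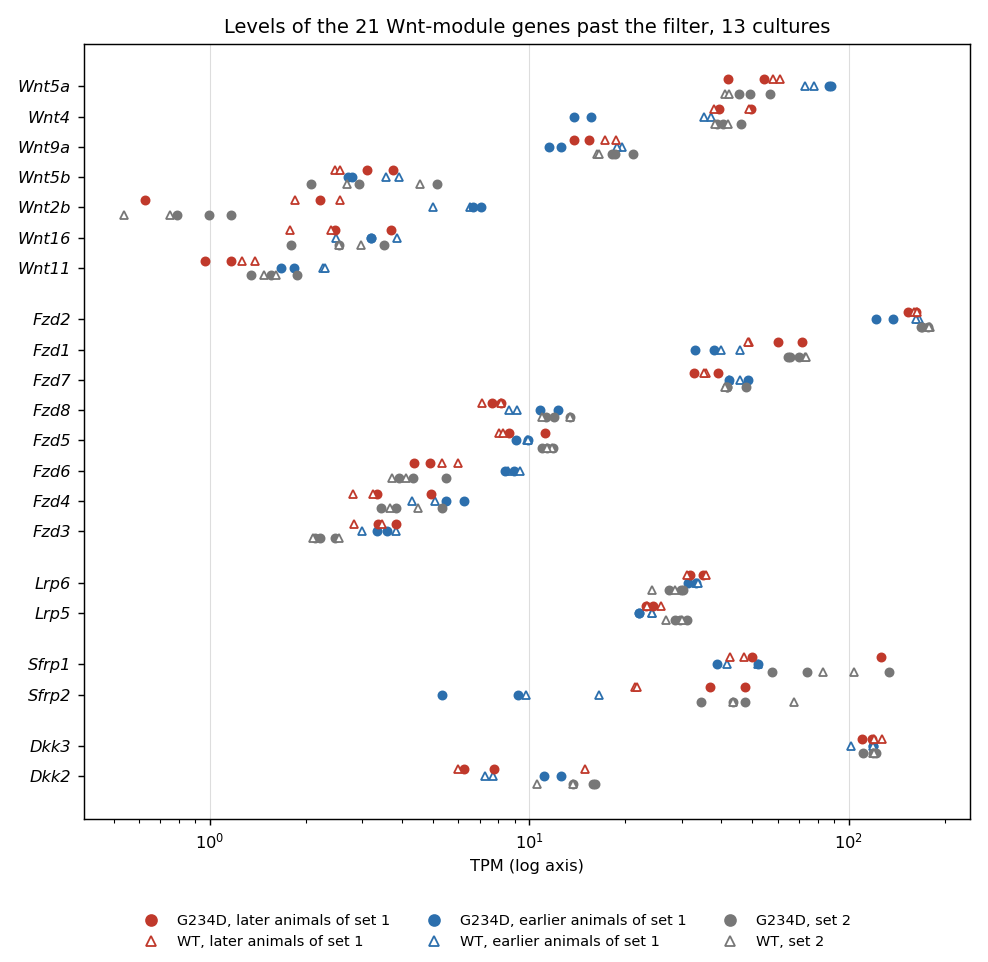
TPM (log axis) of the 21 members past the filter in each of the 13 cultures, by family and mean level; filled circles are G234D, open triangles WT, and colours mark later animals of set 1, earlier animals of set 1 and set 2. Fzd2 stands above all other members in each culture, Dkk3 spans 102.1 to 127.1 TPM, and Wnt2b and Sfrp2 spread most widely.

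Promoter sequences, credited to RefSeq on GRCm38.p6, were available for 12 of the 21 members past the filter. Given 5′ to 3′, with matches to a searched motif in capitals, are those of Wnt4 and Fzd1, whose genotype difference depended on animal group. Those of Wnt2b, Fzd7 and Wnt11, 3 of the members called lower in later animals, are given likewise. That of Fzd4, also called lower, and the other window of Wnt11 held no match and are not printed. Each printed sequence covers 300 bases placed by the gene start of RefSeq. For Wnt4, Fzd1, Wnt2b and Fzd7 this is not the start in GENCODE M21.
Wnt4 (chr4:137277385-137277684, plus strand): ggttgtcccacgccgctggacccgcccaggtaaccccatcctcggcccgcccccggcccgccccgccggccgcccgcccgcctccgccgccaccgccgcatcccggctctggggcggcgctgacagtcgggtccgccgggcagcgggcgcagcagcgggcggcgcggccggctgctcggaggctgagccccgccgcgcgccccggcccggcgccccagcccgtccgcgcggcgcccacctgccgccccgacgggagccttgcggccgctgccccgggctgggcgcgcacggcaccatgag
Fzd1 (chr5:4758167-4758466, minus strand): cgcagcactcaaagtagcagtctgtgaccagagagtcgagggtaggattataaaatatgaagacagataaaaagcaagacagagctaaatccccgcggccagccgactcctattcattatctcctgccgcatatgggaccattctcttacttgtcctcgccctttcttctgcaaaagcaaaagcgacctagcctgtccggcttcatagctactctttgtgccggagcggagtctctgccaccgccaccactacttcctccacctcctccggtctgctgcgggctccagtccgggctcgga
Wnt2b (chr3:104961660-104961959, minus strand): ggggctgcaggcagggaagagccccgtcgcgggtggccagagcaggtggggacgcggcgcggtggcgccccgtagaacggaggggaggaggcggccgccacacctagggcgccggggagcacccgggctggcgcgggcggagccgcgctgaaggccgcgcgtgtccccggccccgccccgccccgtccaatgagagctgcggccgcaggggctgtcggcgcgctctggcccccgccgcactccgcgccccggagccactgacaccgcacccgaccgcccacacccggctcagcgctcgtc
Fzd7 (chr1:59481897-59482196, plus strand): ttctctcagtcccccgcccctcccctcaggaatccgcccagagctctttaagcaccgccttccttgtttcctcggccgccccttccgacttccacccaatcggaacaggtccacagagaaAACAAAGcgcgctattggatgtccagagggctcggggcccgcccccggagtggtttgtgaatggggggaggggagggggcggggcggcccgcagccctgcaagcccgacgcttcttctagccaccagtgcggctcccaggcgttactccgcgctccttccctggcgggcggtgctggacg
Wnt11 (chr7:98834862-98835161, plus strand): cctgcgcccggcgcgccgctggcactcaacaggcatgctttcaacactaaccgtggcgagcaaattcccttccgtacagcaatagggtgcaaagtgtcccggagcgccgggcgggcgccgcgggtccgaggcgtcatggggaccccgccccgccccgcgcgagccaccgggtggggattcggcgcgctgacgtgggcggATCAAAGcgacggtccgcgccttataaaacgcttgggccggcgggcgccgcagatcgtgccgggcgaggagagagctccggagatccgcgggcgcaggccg
The motifs searched on both strands were those of TCF/LEF factors (CTTTGAA, or CTTTGAT, or CTTTGTA, or CTTTGTT) and of AP-1 (TGACTCA and TGAGTCA). A TCF/LEF match and an AP-1 match can share at most an end base. A TCF/LEF match stood in the promoters of Fzd7, Wnt11 and Wnt5b, 3 of 12 members or 3 of 15 windows, since Wnt5b has 3 windows and Wnt11 has 2, against 16.9% of 32851 promoters. AP-1 matched that of Wnt5b, 1 of 12 members or 1 of 15 windows, against 5.2% of promoters. None of these letters occurred in the windows of Wnt4, Fzd1 and Wnt2b, which says nothing of the factors themselves. A match is a description of the sequence and not a shown binding site.

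The make-up of the ligand transcripts differed more between cultures than their sum. Summed ligand TPM lay between 106.2 and 149.0 in all cultures. Wnt5a made up 67.3% of it in M1 and 67.1% in M2, against 50.1% in W1 and 52.1% in W2. Wnt4 made up 10.6% in M1 and 12% in M2, against 24.1% in W1 and 25% in W2. In later animals the ratio of Wnt5a to Wnt4 TPM was 1.38 in M3 and 0.85 in M4, against 1.19 in W3 and 1.6 in W4. In earlier animals it was 6.36 and 5.57 in M1 and M2, against 2.07 and 2.09 in W1 and W2. Set 2 had ratios from 1.17 to 1.23 in G234D and from 0.981 to 1.11 in WT cultures. M1 and M2 thus had the highest Wnt5a share of all 13 cultures, and all 4 earlier animals had a higher ratio than any other culture. These are shares of TPM within a culture, given with no test.

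**Figure D2:**
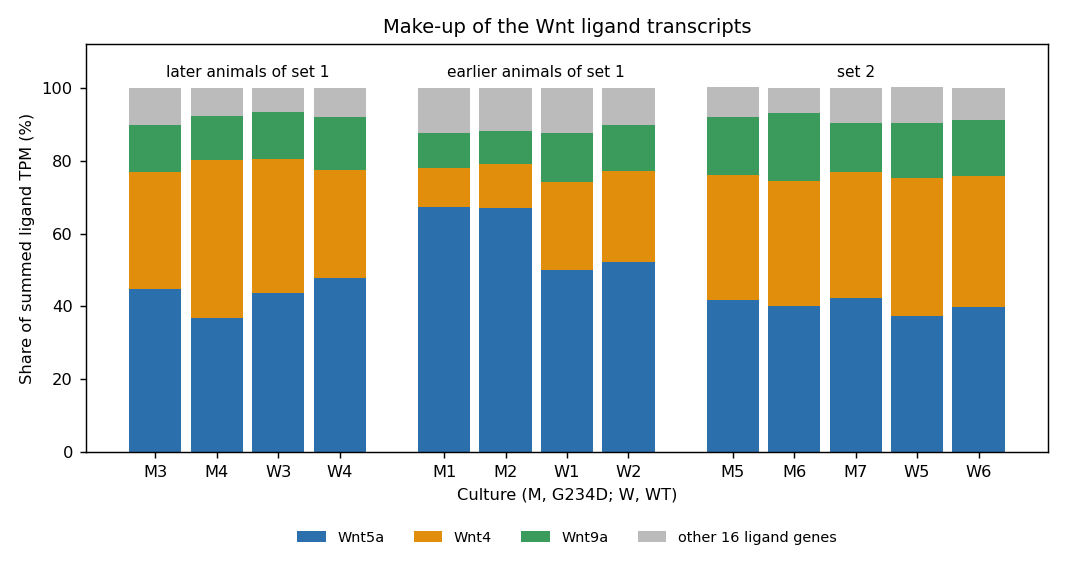
Share of the summed TPM of all 19 ligand genes (%) taken by Wnt5a, Wnt4, Wnt9a and the other ligands in each culture, ordered by group of animals with G234D before WT. Wnt5a holds 67.3% and 67.1% in M1 and M2 and 50.1% and 52.1% in W1 and W2, and 36.8% to 47.7% in the remaining cultures.

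The first comparison asked what genotype changed over all cultures. With the 3 groups of animals as covariate, limma called 0 of 21 members and 0 of 11942 genes (0%) at an adjusted p under 0.05. At an unadjusted p under 0.05 there were 1 member, Fzd2, and 1076 genes (9.01%). Fzd2 stood at 122, 138, 162 and 154 TPM in M1 to M4, against 166, 163, 160 and 164 TPM in W1 to W4. In set 2 it stood at 177, 170 and 169 TPM in M5 to M7, against 180 and 179 TPM in W5 and W6. The G234D values of set 2 lay below both WT values, whereas in set 1 M3 lay within the WT range. Its log2(TPM + 1) difference was −0.14 (SE 0.048, 95% interval −0.24 to −0.036, adjusted p = 0.438).

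The median difference of the 21 members was 0.023, against 0.011 for all genes tested. Wnt4 had the difference farthest from 0 at −0.36 (SE 0.20, adjusted p = 0.639), and Wnt9a followed at −0.20 (SE 0.11, adjusted p = 0.621). Fzd4, which also serves as receptor for the ligand Norrin, was at 0.20 (SE 0.11, adjusted p = 0.61). Dkk3 was measured most closely, with an interval of −0.11 to 0.087, and Lrp5 at −0.13 to 0.071. For Wnt5a the interval was −0.14 to 0.27 and for Fzd1 −0.21 to 0.21. The inhibitors Sfrp2 and Sfrp1 had intervals of −0.70 to 0.51 and −0.42 to 0.78, so differences of that size were not detectable in these cultures.

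Within set 1 limma called 0 of 21 members, against 1 of 11905 genes (0.0084%), and at an unadjusted p under 0.05 there were 3 members, against 9.72% of genes. Wnt9a, a ligand known from joint formation, had the smallest adjusted p. It stood at 12.6, 11.5, 15.4 and 13.8 TPM in M1 to M4, against 19.5, 18.9, 17.3 and 18.7 TPM in W1 to W4. All 4 G234D cultures lay below all 4 WT cultures, with means of 13.4 ± 1.69 and 18.6 ± 0.933 TPM (SD, n = 4 each). The log2 difference was −0.46 (SE 0.083, 95% interval −0.64 to −0.27), and the adjusted p of 0.18 missed the threshold. In set 2 limma called 0 of 20 members and 1 of 12060 genes (0.00829%), with 4 members at an unadjusted p under 0.05, against 6.48% of genes. There Wnt9a stood at 18.6, 21.1 and 18.2 TPM in M5 to M7, against 16.3 and 16.5 TPM in W5 and W6. The 3 G234D cultures lay above both WT cultures, with a difference of 0.22 (SE 0.086, adjusted p = 0.749).

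The difference between the sets was itself tested. For Wnt9a the genotype difference of set 2 minus that of set 1 was 0.68 (SE 0.13, 95% interval 0.40 to 0.95, adjusted p = 0.153), and limma called 0 of 21 members and 1 of 11942 genes (0.00837%). At an unadjusted p under 0.05 there was 1 member, Wnt9a, against 8.08% of genes. Of the other members in set 2, Wnt5a had a difference of 0.27 (adjusted p = 0.741), Dkk2 of 0.31 (adjusted p = 0.749) and Fzd1 of −0.13 (adjusted p = 0.769). Counts of called members over both sets, within set 1 and by set stayed at 0 under all alternatives run.

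The second comparison set the later against the earlier animals of set 1, with genotype in the model. This division came from earlier results of these data. Adjusted p-values for it, here and in the last comparison, are thus not independent support for the division. Of the ligands and receptors, 3 Wnts and 4 Frizzleds were called lower in later animals: limma called 7 of 21 members, all lower, against 850 of 11905 genes (7.14%), of which 518 (4.35%) were lower and 332 higher. After median-of-ratios scaling the split of all genes was 403 lower and 419 higher, with 6 members called, all lower. The 7 members were the ligands Wnt2b, Wnt5a and Wnt11 and the receptors Fzd6, Fzd7, Fzd4 and Fzd8. The median difference over the 21 members was −0.099, against −0.022 over all genes tested. In these bulk cultures, fewer cells of a type and less RNA per cell cannot be told apart.

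Fzd6, a receptor known from planar cell polarity and hair orientation, had the smallest adjusted p. It stood at 4.90, 4.35, 5.35 and 6.001 TPM in M3, M4, W3 and W4, against 8.97, 8.39, 8.61 and 9.37 TPM in M1, M2, W1 and W2. The groups did not overlap, and set 2 at 3.71 to 5.49 TPM lay near the later animals. Its difference was −0.68 (SE 0.083, adjusted p = 0.00807).

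Wnt2b, a ligand that acts mainly through β-catenin, stood at 2.22, 0.628, 1.85 and 2.55 TPM in M3, M4, W3 and W4, against 7.06, 6.66, 6.55 and 4.99 TPM in M1, M2, W1 and W2. Both genotypes were lower in later animals, with no overlap, and set 2 ranged from 0.539 to 1.17 TPM, which includes the level of M4. Its difference was −1.43 (SE 0.24, adjusted p = 0.0216).

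Wnt5a stood at 54.4, 42.0, 58.0 and 60.9 TPM in M3, M4, W3 and W4, against 87.8, 86.7, 73.2 and 77.7 TPM in M1, M2, W1 and W2. Every later culture lay below every earlier one, and set 2 at 41.0 to 56.7 TPM lay in the range of the later animals or just below it. The difference was −0.60 (SE 0.12, adjusted p = 0.03).

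The other 4 members called lower were Fzd7, Fzd8, Wnt11 and Fzd4. Fzd7 stood at 39.0, 32.8, 35.7 and 35.3 TPM in M3, M4, W3 and W4, against 48.5, 42.1, 42.2 and 45.7 TPM in M1, M2, W1 and W2, a difference of −0.31 (SE 0.066, adjusted p = 0.0305). Fzd8 ranged from 7.11 to 8.16 TPM in later and from 8.67 to 12.3 TPM in earlier animals, a difference of −0.35 (adjusted p = 0.045). Neither gene overlapped between the groups, and both stood higher again in set 2, at 41.1 to 47.7 and 11.0 to 13.4 TPM. Wnt11, a ligand known from cell movement in zebrafish and frog gastrulation, ranged from 0.965 to 1.39 TPM in later and from 1.67 to 2.30 TPM in earlier animals, a difference of −0.46 (adjusted p = 0.0374), or −0.71 with a pseudocount of 0.1. Fzd4 overlapped, with 2.80 to 4.92 TPM in later and 4.29 to 6.25 TPM in earlier animals, and had a difference of −0.47 (adjusted p = 0.045).

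Sfrp2, Fzd1 and Wnt4 lay higher in every later than in every earlier culture but did not pass the test as fitted. Sfrp2 stood at 47.4, 36.8, 21.4 and 21.7 TPM in M3, M4, W3 and W4, against 5.34, 9.23, 16.6 and 9.75 TPM in M1, M2, W1 and W2. The difference of Sfrp2 was 1.56 (SE 0.39, adjusted p = 0.0614). Fzd1 had a difference of 0.53 (SE 0.14, adjusted p = 0.0662) and Wnt4 of 0.88 (SE 0.27, adjusted p = 0.091). Without limma's robust step, 9 members were called, with Sfrp2 (adjusted p = 0.0322) and Fzd1 (0.049) higher beside the 7 lower ones; Sfrp2 also passed without W1 (0.0499) and Wnt4 without W4 (0.046). Altogether the groups did not overlap for 6 members on the lower and 3 on the higher side, against 9.77% and 5.7% of all genes tested, and 12 members overlapped.

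Leaving out 1 culture kept Fzd6 called in 8 of 8 fits, Wnt2b in 6, Wnt5a in 4, Fzd7, Fzd4 and Fzd8 in 1 and Wnt11 in 0, with 4 members called without W1, 1 without M1, 1 without M2, 3 without W2, 4 without M3, 3 without M4, 2 without W3 and 6 without W4. These counts include members outside the 7, namely Sfrp2 without W1, and Wnt4 and Dkk2 without W4, where Dkk2 was lower by a difference of −0.52 (adjusted p = 0.0403). Without both M1 and M2, whose muscle, macrophage and glial marker sums were the highest of set 1, 0 of 21 members and 15 of 11905 genes were called; among WT cultures alone Wnt2b, Wnt5a and Fzd6 were called. Without M1 and M2 the earlier animals are WT only, so each difference is the same as among WT cultures alone. These fits are thus not separate checks of the differences, and only the spread behind their tests differs. The differences of all 7 stayed negative, at −0.58 for Fzd6, −1.08 for Wnt2b, −0.30 for Fzd7, −0.50 for Wnt11 and −0.50 for Fzd4. Those of Wnt5a at −0.34 and of Fzd8 at −0.20 were smaller than in all 8 cultures by more than 1.5 times.

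Some marker genes were also called in the same comparison, against 7.14% of all genes. Pericyte and smooth muscle markers (8 genes) summed to 4880 to 5870 TPM in later and 6650 to 7310 TPM in earlier animals. Of 7 tested genes 2 were called, both lower. Most of this sum is Acta2, at 4420 to 6830 TPM over all cultures. Rgs5, Abcc9 and Kcnj8 of the same list reached at most 1.56, 1.29 and 2.3 TPM, so the sum says little of them. Skeletal muscle markers summed to 75.9 to 190 TPM in later and 149 to 513 TPM in earlier animals. These ranges overlap, and 0 of 11 were called. Macrophage markers had 1 of 8 called, lower. Schwann cell and melanocyte markers had 0 of 8 called, and keratinocyte and endothelial markers 0 of 2 each. Dermal papilla and papillary fibroblast markers (10 genes) had 4 of 7 called and fibroblast markers 3 of 10, all higher in later animals. Of the former list Corin, Sox18 and Dpp4 reached at most 0.0862, 0.359 and 0.353 TPM and were not tested. Its member Lef1 is also counted among the β-catenin targets described below. The part of all these marker genes in the differences of the 7 members was not tested.

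**Figure D3:**
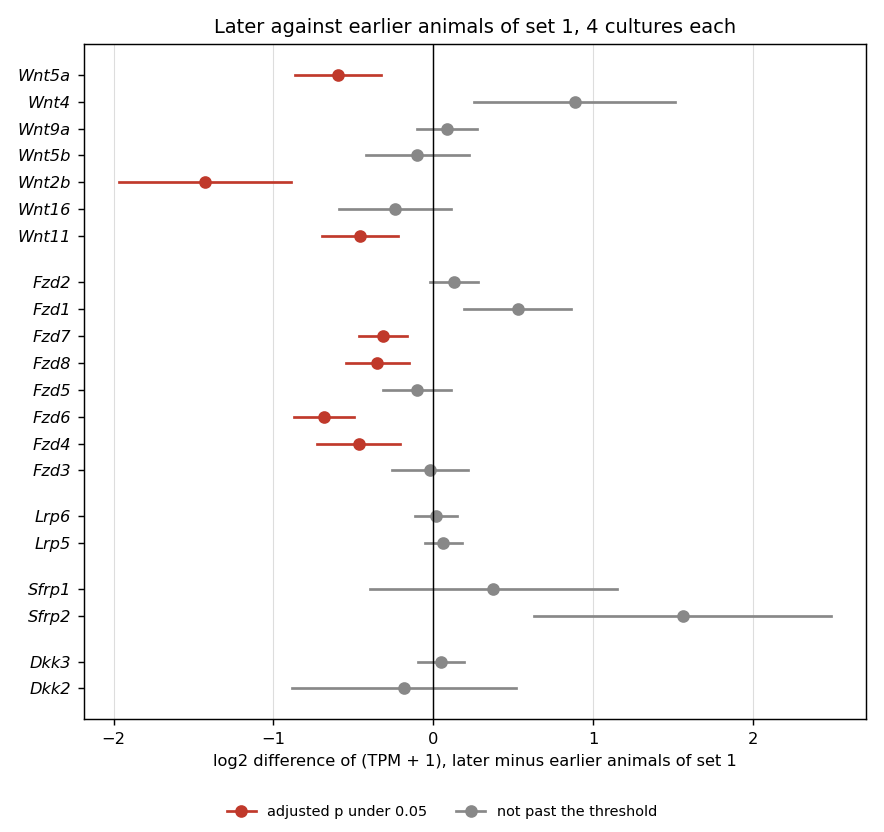
Differences of log2(TPM + 1), later minus earlier animals of set 1 (4 cultures each), with 95% intervals for the 21 members; red marks an adjusted p under 0.05. The 7 called members all lie below 0, and Sfrp2 at 1.56 lies farthest above it with a wide interval.

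The last comparison asked whether the genotype difference depended on the group of animals in set 1. Wnt4 and Fzd1 were called, 2 of 21 members, against 334 of 11905 genes (2.81%). For both, the difference of G234D minus WT was more positive in the later animals, as were those of 111 of all genes called (0.932% of genes tested).

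Wnt4, a ligand that acts with or without β-catenin depending on the cell, was low in M1 and M2 only. In later animals it stood at 39.4 and 49.5 TPM in M3 and M4, against 48.8 and 38.0 TPM in W3 and W4. In earlier animals it stood at 13.8 and 15.6 TPM in M1 and M2, against 35.3 and 37.2 TPM in W1 and W2. In set 2 it stood at 40.5, 38.8 and 46.2 TPM in M5 to M7, against 41.8 and 38.2 TPM in W5 and W6. The genotypes overlapped in later animals and in set 2, and M1 and M2 lay below the other 11 cultures. The log2 difference of G234D minus WT was 0.035 in later animals (95% interval −0.25 to 0.32), −1.25 in earlier animals (−1.53 to −0.97) and 0.061 in set 2 (−0.20 to 0.32). Later minus earlier, the test of the dependence gave 1.28 (SE 0.20, adjusted p = 0.0198).

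Fzd1, a receptor linked to β-catenin signalling, changed direction between the groups. It stood at 71.7 and 60.01 TPM in M3 and M4, against 48.9 and 48.4 TPM in W3 and W4. In earlier animals it stood at 33.1 and 37.8 TPM in M1 and M2, against 45.6 and 40.0 TPM in W1 and W2. G234D cultures were thus higher in later animals and lower in earlier animals, without overlap in either. In each of these groups, however, most members past the filter did not overlap between genotypes. The share of all genes doing so is not given here, so no trait of the members is read from this. Sfrp2 and Wnt5b also lay higher in later and lower in earlier G234D animals without overlap. With 2 cultures per genotype in a group, a lack of overlap alone does not set Fzd1 apart. In set 2 the 65.5, 69.9 and 64.7 TPM of M5 to M7 lay below the 72.8 and 73.5 TPM of W5 and W6. The genotype difference was 0.42 in later animals (0.23 to 0.61), −0.27 in earlier animals (−0.46 to −0.074) and −0.13 in set 2 (−0.31 to 0.043), and the dependence on the group in set 1 was 0.69 (SE 0.14, adjusted p = 0.039).

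With the replicate number of the labels as a block, 0 of 21 members and 189 genes were called, with an adjusted p of 0.0644 for Wnt4 and 0.0761 for Fzd1. Wnt4 also missed the threshold without W1 (0.0714), M1 (0.0936) or W2 (0.0852), and Fzd1 without W1 (0.123), M1 (0.149), W2 (0.0736), W3 (0.0988) or W4 (0.127), while both differences stayed positive.

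Other members that did not pass this test are given by value. Sfrp2 had a genotype difference of 0.92 in later and −0.77 in earlier animals, and the test of the dependence gave 1.70 (SE 0.43, adjusted p = 0.105, or 0.0476 without the robust step). Wnt5a had −0.31 in later and 0.21 in earlier animals (dependence −0.52, adjusted p = 0.0953). Without M3 the test passed for Wnt5a (0.0034) and Wnt2b (0.0286), and without W3 for Dkk2 (0.00975), each with a negative dependence. Wnt5b, a close relative of Wnt5a, had 0.33 in later and −0.34 in earlier animals (dependence 0.67, adjusted p = 0.0904). Fzd2 had −0.036 in later and −0.34 in earlier animals (dependence 0.30, adjusted p = 0.112). For Wnt9a the differences were −0.28 and −0.63 (dependence 0.35, adjusted p = 0.157), so G234D was the lower genotype in both groups.

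Sums of skeletal muscle and of Schwann cell and melanocyte markers were highest in M1 and M2, the cultures in which Wnt4 was low. Fzd1 differed between genotypes in later animals as well. The test of the dependence called 6 of 8 tested Schwann cell and melanocyte markers, against 2.81% of all genes. It called 2 of 11 skeletal muscle and 0 of 8 macrophage markers. All called ones of these lists had a genotype difference more negative in later animals. So had the 1 of 7 dermal papilla and papillary fibroblast markers called. The 2 of 10 fibroblast markers called had a more positive one, like Wnt4 and Fzd1. Pericyte and smooth muscle markers had 0 of 7 called, and keratinocyte and endothelial markers 0 of 2 each. Sox10, a transcription factor of glia and melanocytes, stood at 6.53 and 6.15 TPM in M3 and M4, against 4.49 and 5.16 TPM in W3 and W4. In earlier animals Sox10 stood at 22.4 and 22.6 TPM in M1 and M2, against 3.30 and 4.20 TPM in W1 and W2. Their part in the Wnt4 and Fzd1 values was not tested.

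**Figure D4:**
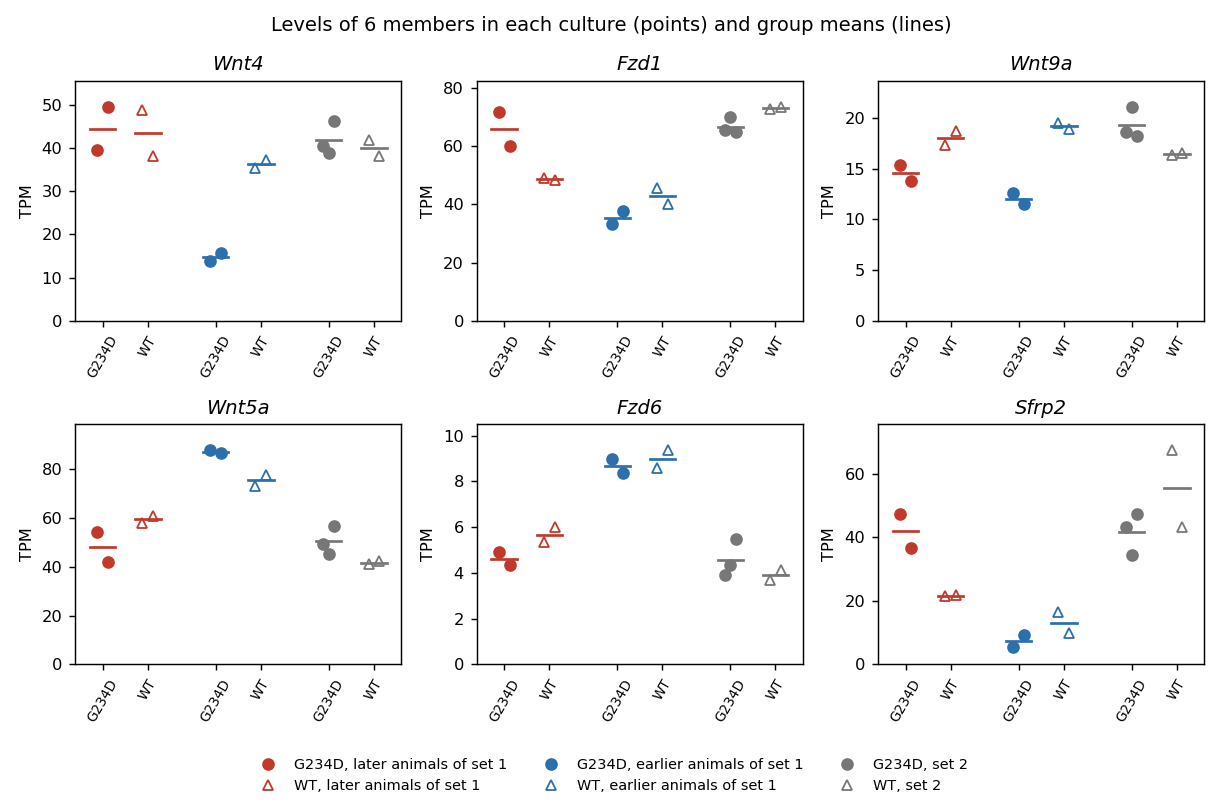
TPM of Wnt4, Fzd1, Wnt9a, Wnt5a, Fzd6 and Sfrp2 in each culture (points) with group means (lines), G234D left of WT within later animals of set 1, earlier animals of set 1 and set 2. Wnt4 is low in M1 and M2 alone, Fzd1 is higher in G234D than in WT in later animals and lower in the other 2 groups, and Wnt5a and Fzd6 are highest in earlier animals of both genotypes.

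**Figure D5:**
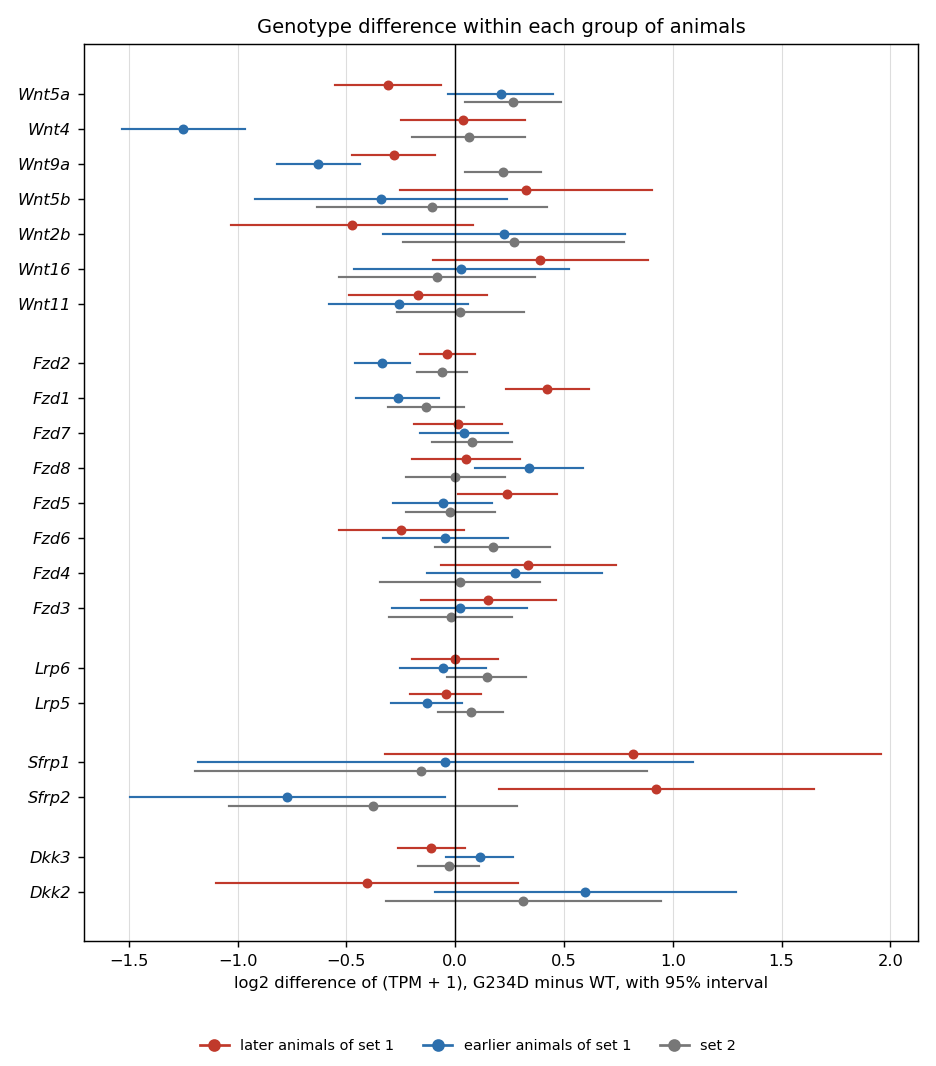
Differences of log2(TPM + 1), G234D minus WT, with 95% intervals for the 21 members within later animals of set 1 (red), earlier animals of set 1 (blue) and set 2 (grey). Wnt4 at −1.25 in earlier animals lies farthest from 0, while its other 2 intervals hold 0.

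The rest of the pathway was followed through 3 lists of other Wnt genes. Over both sets 0 of 23 tested genes of Wnt secretion and membrane reception, 0 of 31 cytoplasmic and nuclear genes and 0 of 19 targets and feedback genes of β-catenin were called by limma. Of all 11942 genes tested 0 were called. At an unadjusted p under 0.05 there were 5, 2 and 3 in that order, against 9.01% of all genes tested. The smallest p-values in each list were those of Tspan12, a Fzd4 co-factor (0.28, adjusted p = 0.343), Dvl3, a cytoplasmic relay of Frizzleds (0.12, adjusted p = 0.497), and Jag1, a Notch ligand (−0.26, adjusted p = 0.474). Next in order came Gpc6 (0.15), Rspo2 (0.39) and Lgr5 (−0.82) of the first list, Pygo1 (0.20), Tnks2 (0.064) and Tle1 (0.16) of the second, and Lgr5, Nkd2 (0.33) and Apcdd1 (−0.15) of the third.

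Later against earlier animals, 3 of 23, 1 of 31 and 2 of 19 genes were called, against the 7.14% of all genes. Lgr5, a receptor of R-spondins and itself a β-catenin target counted in 2 lists, stood at 62.6, 128, 122 and 62.7 TPM in M3, M4, W3 and W4, against 6.85, 8.45, 23.1 and 31.3 TPM in M1, M2, W1 and W2. All later cultures lay above all earlier ones, a difference of 2.53 (SE 0.45, adjusted p = 0.0326). Porcn, the enzyme that adds the lipid to Wnts (0.45), and Lef1, a nuclear partner of β-catenin (0.63), were also higher. Frzb, the Sfrp family member with a name outside the rule, was lower at −0.71, as was Dvl3 at −0.22. Axin2, a widely used β-catenin target, was at −0.32 (adjusted p = 0.138).

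For the dependence of genotype on the group of animals, 1 of 23, 0 of 31 and 5 of 19 genes were called, against 2.81% of all genes. Lgr4, another R-spondin receptor (0.92), Nkd1, a feedback inhibitor of Dvl (1.14), and Twist1, a mesenchymal transcription factor (0.62), had a positive dependence like that of Wnt4. Nkd2, the paralogue of Nkd1 (−1.09), Ccnd1, a cell cycle cyclin (−1.18), and Cd44, a hyaluronan receptor (−0.77), had a negative one. Nkd1 stood at 13.1 and 13.4 TPM in M3 and M4, against 12.5 and 7.95 TPM in W3 and W4, and in earlier animals at 4.39 and 5.03 TPM in M1 and M2, against 8.41 and 8.93 TPM in W1 and W2. Targets of β-catenin thus had dependences in both directions, and that of Axin2 was −0.076 (adjusted p = 0.903).

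Several members overlap other annotated genes on mm10: Wnt5a and Sfrp2 each have an antisense RNA, Wnt5b overlaps Fbxl14, and Fzd6, Wnt2b and Wnt11 overlap non-coding or pseudogene entries. Whether the authors' quantification used strand is not given in the sources used here, so reads of such partners cannot be told apart. Wnt4 (chr4:137277489-137299726, plus strand), Fzd1 (chr5:4753839-4758035, minus strand), Fzd7 and Fzd4 overlap no other annotated gene.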

How the data were processed

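Members and gene lists were chosen with earlier results of these data known, and the division of set 1 by animal number comes from those results. The authors deposited TPM per gene, so named in the file headers, as 1 table per culture, each summing to 1000000. The submitters' processing notes name the build mm10, and aligner, quantifier and annotation were not given in the sources used here. Per the labels' protocols the libraries were stranded.

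TPM were transformed to log2(TPM + 1), which understates differences of low genes, and tested with limma 3.58.1 in R 4.3.3 with trend and robust empirical Bayes. Genes at 1 TPM or more in at least 6 cultures (both sets), 4 (set 1) or 2 (set 2) were tested, and p-values were adjusted by Benjamini-Hochberg over all of them, with calls at 0.05. Covariates were the 3 groups of animals over both sets, those of set 1 within it, genotype for later against earlier animals, and none in set 2. Genotype differences within each group of animals come from 1 model over all 13 cultures.

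Every member past the filter is named. Of those below it, members reaching 0.5 TPM are named, as are those listed at 0 throughout and the highest of the rest, chosen after their values were seen. Of each other Wnt list the 4 with the smallest p over both sets and all called genes are named; Axin2 and Sox10 were chosen after their values were seen. All 39 members matched GENCODE M21, which gave the mm10 coordinates. The models were tested on simulated data. No 2 cultures held identical values.

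Same-numbered G234D and WT cultures of set 1 had deviations from the genotype means that correlated at 0.314, 0.236, 0.244 and 0.214, over the limit of 0.1, so the block is given beside results whose call it changes. From the means of the animal groups the correlations were −0.0105 and −0.0883. Alternatives were the pseudocount, the filter, the robust step, the covariate, the block, 2 scalings and each culture left out.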

Additional observations from a re-analysis of the deposited data

Results flagged for a closer look

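Among the 4 G234D cultures of set 1, Sfrp1 in M3 stood apart at 126 TPM, against 38.8, 49.96 and 52.2 TPM in M1, M4 and M2. Dkk3 in M3 was the lowest of the same group at 110 TPM, against 118, 119 and 119 TPM in the others. These were 2 of 42 groups checked for a culture far from the rest, and chance gives about 1 in 20. The genotype difference depended on the group of animals for Wnt4, by 1.28 on the log2 scale (G234D minus WT, later minus earlier animals, adjusted p = 0.0198 with limma, lost with the replicate block), and for Fzd1, by 0.689 (adjusted p = 0.039, also lost with the block).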

How the results depend on the processing

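Of 2226 recomputed differences of members, 2148 kept their side of the threshold, 67 lost a call, 11 gained one and 0 reversed. Among those kept, 130 changed sign with intervals over 0 in both settings. Most of the 2226 values belong to members that had no call to lose. All 67 losses fell on refits of the called members named above, so the total says little of how stable their calls are. For later against earlier animals (7 members, 850 genes), 3 members and 269 genes were called with no filter, 2 members at 10 TPM, where 11 were tested, 4 members without genotype in the model, 9 members without the robust step, 1 to 6 members and 36 to 865 genes with 1 culture left out. Chosen after seeing the data, leaving out M1 and M2 gave 0 members and 15 genes, and WT cultures alone 3 members and 197 genes. The differences themselves are the same in both of these fits. For genotype by group of animals (2 members, 334 genes), 1 member and 139 genes were called with no filter, and 0 to 4 members and 46 to 686 genes with 1 culture left out. The cause was not tested.

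With the replicate number as a block, genotype by group of animals had 0 members and 189 genes called. In set 2, where M7 has no partner and same-numbered cultures did not deviate together (correlations −0.155 and 0.0138), the block gave 2 members, Sfrp1 and Sfrp2, and 21 genes, against 0 and 1. It changed no other count of members. No block could be fitted for later against earlier animals, in which the numbers are nested. Genes called for genotype were 0 to 8 in set 1, 0 to 14 in set 2 and 0 to 4 by set with 1 culture left out, against 1 each, and 0 in each with no filter. Set in place of the animal group gave 0 in set 1 and by set, 10 TPM gave 0 in set 2, and the fits by set with the block or without the robust step gave 0. Depth is unknown, so limits for low members could not be set.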

Other observations

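Levels of other genes of Wnt secretion and reception, chosen after their values were seen, are given by value over the 13 cultures. Wls, the carrier of Wnts to the cell surface, ranged from 304 to 358 TPM. Ror2 and Ryk, receptors of Wnt5a, ranged from 31.1 to 47.4 TPM and from 252 to 311 TPM, and Ptk7, a co-receptor in planar cell polarity, from 547 to 656 TPM. Ror1 was lower at 3.82 to 7.61 TPM. Ctnnb1, which encodes β-catenin, ranged from 421 to 465 TPM. None of these 6 genes was called in any of the comparisons. Rspo3 was the R-spondin at the highest level, at 6.71 to 13.9 TPM.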
